A study of Mus musculus with 9 samples.

Results

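The genes described here encode crystallins and beaded filament proteins, the structural proteins of the ocular lens, and were measured in mouse iris. The 10 genes were Cryaa, Cryab, Cryba1, Cryba4, Crybb1, Crybb2, Crybb3, Crygs, Bfsp1 and Bfsp2. They were found by gene symbol, and all 10 were listed among the 18349 genes of each library. Bulk RNA-Seq was done on 9 iris libraries in 3 groups of 3. The first group was Sham VEGFR3 fl/fl, in which PBS was put on the cornea. The second was injured VEGFR3 fl/fl, in which the cornea received 0.5 µL of 1 M sodium hydroxide for 60 seconds, called corneal alkali injury (CAI). The third was CAI-treated mice labelled as VEGFR3 iLECko, which carried VEGFR3 fl/fl and Prox1-CreERT2, a tamoxifen-driven Cre expressed from the promoter of a gene of lymphatic endothelial cells. Mice were 6 weeks old at treatment and 10 weeks old at collection, and all groups, controls included, received 80 mg/kg tamoxifen on days 13 to 17. All were on a C57BL/6J background, and each library pooled 3 irises of identical genotype. The study used both male and female mice. Per the study's methods, the lens, its zonular fibers, the cornea and the limbus were removed before the iris was separated from the ciliary body.

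Crystallins fill the cytoplasm of the elongated fiber cells of the lens and give it transparency and refractive power. The alpha crystallins Cryaa and Cryab are small heat shock proteins that hold unfolding proteins in solution. Cryab is also made in muscle and many other tissues, whereas Cryaa is made mainly in the lens. The beta and gamma crystallins are a separate superfamily of compact structural proteins, and Bfsp1 and Bfsp2 are intermediate filament proteins that form the beaded filament of fiber cells. The iris itself consists of stroma, smooth muscle and pigmented epithelium. It lies in front of the lens and touches it around the pupil.

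Total estimated counts were 16617187 to 18306359 per library. The gene targeted by Cre, Flt4, which encodes VEGFR3, was at 282, 237 and 265 counts in sham, 277, 353 and 400 in the injured VEGFR3 fl/fl group, and under the knockout label it was at 478, 370 and 476. It was therefore not lower under the knockout label (log2 fold change against injured VEGFR3 fl/fl 0.34 ± 0.15 SE, adjusted p = 0.2 by edgeR), and these libraries are called labelled VEGFR3 iLECko throughout. Counts of the whole iris cannot decide whether Flt4 was deleted, since Cre acts in lymphatic endothelial cells and all cells are counted together. The paper reports, from Lyve1 staining, that growth of lymphatic vessels in the injured iris was blocked in VEGFR3 iLECko mice. Smooth muscle and pigment cell markers of the iris were present in every library, and their summed levels were lower in all 6 injured libraries (1605 to 3866 and 3325 to 7010 CPM, counts scaled to the normalized library total) than in sham (7868 to 10157 and 27246 to 29093 CPM). The sum of 10 rod and cone photoreceptor markers, led by genes such as Gnat1 and Sag, ranged from 17.1 to 1001 CPM and did not follow the groups. The sum of 4 Y-linked genes was 13 to 19 counts in the 3 labelled VEGFR3 iLECko libraries and 14 in injured VEGFR3 fl/fl 3, against 923 to 2967 in the other 5 libraries. In the labelled VEGFR3 iLECko libraries and injured VEGFR3 fl/fl 3, Kdm5d and Eif2s3y had 0 counts and Ddx3y 0 to 2. Nearly all Y-linked counts there were of Uty, so RNA of male mice was at or near 0 in these libraries. The sexes pooled in a library therefore differed between the injured groups, and between sham and labelled VEGFR3 iLECko without overlap. A count of 0 allows up to 3 counts, or 0.166 to 0.182 CPM depending on the library. Intervals and limits on low counts cover counting error only.

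The stretches upstream of 6 members are shown, of which 4 lie in pairs on chromosome 5. All 6 had more counts in the injured VEGFR3 fl/fl group than in sham, but their counts were spread differently over the injured libraries. The starts of Cryba4 and Crybb1 are 3297 bases apart on opposite strands, and those of Crybb2 and Crybb3 are 11467 bases apart on the same strand. Each stretch is the 120 bases before the RefSeq transcription start, read 5′ to 3′ on the strand of the gene, from build GRCm38.p6. Capitals mark TGCTGA, or its reverse complement TCAGCA, the core half-site bound by large Maf proteins, which drive crystallin genes in the lens.
Cryaa, chr17:31677811-31677930, plus strand: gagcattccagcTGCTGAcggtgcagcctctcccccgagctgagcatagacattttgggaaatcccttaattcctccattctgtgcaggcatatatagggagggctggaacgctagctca
Cryba1, chr11:77725294-77725413, minus strand: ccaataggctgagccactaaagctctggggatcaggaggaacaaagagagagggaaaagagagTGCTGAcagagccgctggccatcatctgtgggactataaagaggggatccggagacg
Cryba4, chr5:112252519-112252638, minus strand: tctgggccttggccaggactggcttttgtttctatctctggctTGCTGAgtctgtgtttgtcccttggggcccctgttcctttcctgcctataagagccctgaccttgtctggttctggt
Crybb1, chr5:112255700-112255819, plus strand: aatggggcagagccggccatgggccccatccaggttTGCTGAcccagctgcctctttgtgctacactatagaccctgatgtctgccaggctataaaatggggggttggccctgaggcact
Crybb3, chr5:113081585-113081704, minus strand: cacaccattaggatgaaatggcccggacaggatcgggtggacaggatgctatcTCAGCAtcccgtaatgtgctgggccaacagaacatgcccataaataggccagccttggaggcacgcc
Crybb2, chr5:113070118-113070237, minus strand: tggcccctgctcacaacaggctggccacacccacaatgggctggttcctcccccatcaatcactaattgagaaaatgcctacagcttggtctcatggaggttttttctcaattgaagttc
TGCTGA was searched on both strands as exact letters. It was in 8.18% of 32851 mouse promoter windows of this length and in 5 of the 9 members with a window. Its first base lay 108 bases before the start in Cryaa, 57 in Cryba1, 77 in Cryba4 and 84 in Crybb1, and in Crybb3 the reverse complement lay 67 bases before it. The letters were not in the windows of Crybb2, Crygs, Bfsp1 and Bfsp2. Cryab had no window in the table. A match is a description of the letters, not a measured binding site.

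In sham irises the alpha crystallin Cryab and the beaded filament gene Bfsp2 were abundant, and the remaining members were low or near 0. Set per kilobase of the longest annotated transcript, the mean level was 480 ± 61.5 CPM per kb for Cryab and 74.9 ± 11.6 for Bfsp2 (SD, n = 3). Bfsp1 was at 1.06 ± 0.25 CPM per kb and Crybb3 at 0.922 ± 0.055, which did not differ beyond their spread. The other 6 had mean levels from 0 to 0.170 CPM per kb. In injured VEGFR3 fl/fl the order of mean levels was Cryab (195 ± 25.0 CPM per kb), Bfsp2 (39.8 ± 17.7), Cryaa (18.3 ± 13.97), Crybb2 (7.70 ± 11.2) and Crybb3 (4.85 ± 0.77), with the rest at 2.58 or lower. Cryaa thus stood behind only Cryab and Bfsp2, but from Bfsp2 downwards neighbours in the order overlapped in their mean ± SD. In the labelled VEGFR3 iLECko libraries Cryab (190 ± 37.7 CPM per kb), Bfsp2 (48.0 ± 1.34), Cryaa (11.9 ± 3.62) and Crybb3 (2.42 ± 0.61) led, without overlap of mean ± SD between these neighbours.

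**Figure D1:**
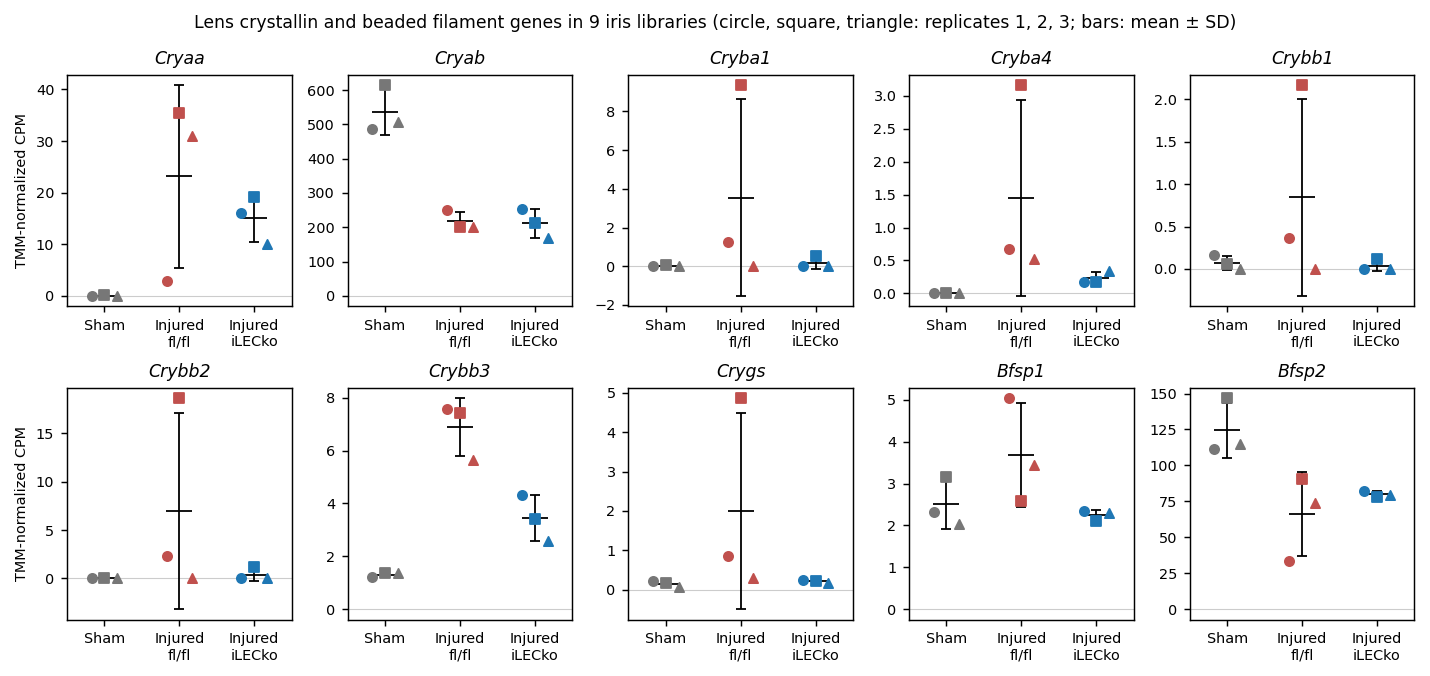
Normalized level (TMM-scaled CPM, linear axis, a separate scale for each gene) of the 10 genes in the 9 libraries; circles, squares and triangles are replicates 1, 2 and 3, horizontal bars are group means and error bars the SD. Cryba1, Cryba4, Crybb1, Crybb2 and Crygs are each highest in injured VEGFR3 fl/fl 2, whereas Cryab is lower in all 6 injured libraries than in sham.

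The first comparison asked what corneal injury did to these genes in irises of the same genotype. Of the 10 members, 6 had enough counts to be tested, and 3 of those were called higher (Cryaa, Crybb2 and Crybb3) and 2 lower (Cryab and Bfsp2) after injury. A call here means adjusted p under 0.05 over all 15010 genes tested and more than 1.5-fold change, by edgeR's quasi-likelihood test. The background is high, since 39.7% of all tested genes were called, 22.1% higher and 17.5% lower. The median log2 fold change was 1.47 over the 6 members and 0.01 over all tested genes. However, Cryaa and Crybb2 passed the filter on low counts only through injured libraries. Neither this median nor the count of members called higher supports anything on its own. Cryba1, Cryba4, Crybb1 and Crygs did not pass the filter on low counts and are given by their counts. Reads of a bulk sample cannot tell fewer cells of a type from less RNA per cell.

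Cryaa (chr17:31677807-31681733, plus strand) showed the largest difference among the tested members that were detected in sham. It had 1, 2 and 0 counts in sham, 48, 607 and 541 in the injured VEGFR3 fl/fl group, and 274, 337 and 175 in labelled VEGFR3 iLECko. All 6 injured libraries lay above all sham libraries, and injured VEGFR3 fl/fl 1 was the lowest of the 6. The group means were 0.0561 ± 0.0565 CPM in sham and 23.2 ± 17.7 CPM in the injured VEGFR3 fl/fl group (SD, n = 3). The ratio of summed CPM was 419-fold, with a 95% counting interval of 143 to 2032, because sham held only 3 counts. The fitted log2 fold change was 8.52 ± 1.24 (SE, edgeR adjusted p = 3.10e-04), a value that depends on the few sham counts. Its exons overlap an antisense gene in the GENCODE annotation, AC090881.2, and whether counting used strand is not given in the sources used here.

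Crybb3 (chr5:113075839-113081584, minus strand) encodes a basic beta crystallin and was the only beta or gamma crystallin among the members with steady counts in sham. It had 22, 24 and 24 counts in sham and 125, 127 and 98 in the injured VEGFR3 fl/fl group. The 3 injured libraries were close to each other, at 6.88 ± 1.09 CPM against 1.31 ± 0.078 CPM in sham (SD, n = 3). The increase was 2.39 ± 0.24 on the log2 scale (SE, edgeR adjusted p = 3.39e-05). Its counts in the injured libraries spanned a much narrower range than those of Crybb2, its neighbour on the chromosome.

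Crybb2 (chr5:113058258-113070117, minus strand), which encodes an abundant beta crystallin of the adult lens, had 0 counts in each sham library and 38, 318 and 0 in the injured VEGFR3 fl/fl group. The groups overlapped at 0. Injured VEGFR3 fl/fl 2 held most of the counts, and injured VEGFR3 fl/fl 3 held none. Summed over the group, the level was at least 125-fold higher than 3 counts in sham would give. The call (edgeR adjusted p = 0.0323) was lost without any 1 of the sham libraries (adjusted p = 0.0689 to 0.0708) and without injured VEGFR3 fl/fl 2 (adjusted p = 0.0930), within a range of 0.00289 to 0.0930 over all alternatives. Crybb2 was left out of the test when its 3 libraries with the most counts were removed.

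The other beta and gamma crystallins among the members had the same lopsided spread. Cryba1 (chr11:77718615-77725283, minus strand), which encodes the acidic beta A3/A1 crystallins, had 0, 1 and 0 counts in sham and 21, 160 and 0 in the injured VEGFR3 fl/fl group. Crybb1 (chr5:112255815-112269585, plus strand), a basic beta crystallin, had 3, 1 and 0 in sham and 6, 37 and 0 after injury. These groups overlapped for both genes, with counting ratios of 190-fold (33.7 to 7546) for Cryba1 and 11.3-fold (4.10 to 43.3) for Crybb1. Cryba4 (chr5:112246493-112252518, minus strand), an acidic beta crystallin, had 0 counts in all sham libraries and 11, 54 and 9 in the injured VEGFR3 fl/fl group, at least 25.9-fold higher. Crygs (chr16:22805203-22811577, minus strand), which encodes gamma S crystallin, had 4, 3 and 1 in sham and 14, 83 and 5 after injury, a counting ratio of 13.4-fold (6.54 to 31.8). Cryba4 and Crygs did not overlap between the groups, as was the case in the upward direction for 33.9% of all tested genes. Neither was tested in the filtered fit, and both were called, with Cryba1, when no filter was used.

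Cryab and Bfsp2 fell. Cryab (chr9:50751325-50756636, plus strand) had 8789, 10884 and 9014 counts in sham, 4115, 3441 and 3506 in the injured VEGFR3 fl/fl group and 4352, 3749 and 2952 in labelled VEGFR3 iLECko. All 6 injured libraries lay below all sham libraries, and a decrease without overlap was seen in 32.4% of all tested genes. The level in the injured VEGFR3 fl/fl group was 40.5% of that in sham, 218 ± 27.9 against 536 ± 68.7 CPM (SD, n = 3), a log2 fold change of -1.30 ± 0.16 (SE, edgeR adjusted p = 1.18e-04). The exons of Cryab overlap the antisense gene Hspb2, another small heat shock gene, whose start is 1029 bases away, and 7 of its 9 values were not whole numbers. Reads of the pair cannot be told apart without strand. Iris smooth muscle and pigment cell markers fell in the same libraries, by the sums given above, and their part in the change of Cryab was not tested.

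Bfsp2 (chr9:103424924-103480420, minus strand), which encodes phakinin, had 2016, 2596 and 2045 counts in sham, 553, 1552 and 1286 in the injured VEGFR3 fl/fl group, and 1408, 1375 and 1378 in labelled VEGFR3 iLECko. Every injured library lay below every sham library, and injured VEGFR3 fl/fl 1 was by far the lowest. The decrease in the injured VEGFR3 fl/fl group was -0.91 ± 0.29 on the log2 scale (SE, edgeR adjusted p = 0.0225). It missed the threshold without sham 2 (-0.78, adjusted p = 0.0753) and with only these 2 groups in the fit (-0.90, adjusted p = 0.0539), within a range of 0.00317 to 0.0753 over all alternatives. Injured VEGFR3 fl/fl 1 also had the highest sum of corneal and surface epithelium markers, 117 CPM against 3.51 to 51.0 in the other 8 libraries. Aldh3a1 gave 1921 of the 1931 counts in that sum. The keratin genes of the list were at or near their lowest there, with Krt5, Krt12 and Krt15 at 3, 3 and 4 counts. The sum thus stands for Aldh3a1 and not for the list, and its part in Bfsp2 was not tested. An antisense gene, 5830418P13Rik, overlaps exons of Bfsp2.

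Bfsp1 (chr2:143826528-143863173, minus strand) encodes filensin, the partner of phakinin in the beaded filament. It had 42, 56 and 36 counts in sham and 83, 44 and 60 in the injured VEGFR3 fl/fl group. The groups overlapped, and the log2 fold change of 0.56 ± 0.29 did not pass (SE, edgeR adjusted p = 0.122). Without injured VEGFR3 fl/fl 2 it passed (0.76, adjusted p = 0.0433, within 0.0433 to 0.427 over all alternatives). The partner genes therefore differed in level by more than the spread and in the result of the test, with Bfsp2 called lower and Bfsp1 not called, although the difference between their changes was not itself tested.

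**Figure D2:**
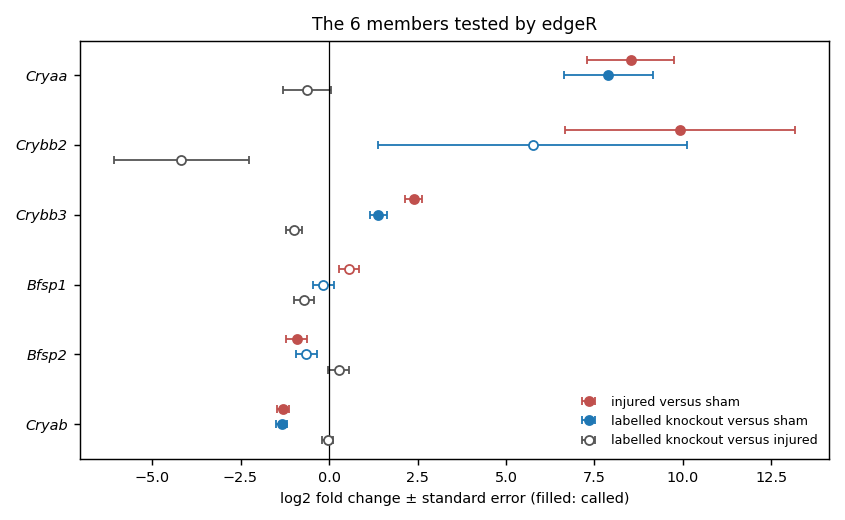
Log2 fold changes with standard errors of the 6 tested members in the 3 comparisons, from edgeR; filled points were called and open points were not. Cryaa at 8.52 and 7.90 and Crybb3 at 2.39 and 1.39 were higher than in sham in both injured groups, Cryab was lower at -1.30 and -1.34, and no point of the comparison between the injured groups was called.

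Most of the beta and gamma crystallins were high in the same libraries. The sum of 12 of them, namely Cryba1, Cryba2, Cryba4, Crybb1, Crybb2, Crygs and the 6 clustered gamma crystallins Cryga to Crygf, was 8, 6 and 1 counts in sham, 121, 927 and 15 in the injured VEGFR3 fl/fl group, and 7, 49 and 9 in labelled VEGFR3 iLECko. Crybb3, which had steady counts in every group, and Crygn, which fell after injury, are not in this sum. The 5 members in it were grouped after seeing the data, so the shared pattern is a description. Of the 1143 counts in all libraries, 81.1% were in injured VEGFR3 fl/fl 2. Outside the members, Crygd had 14, 88 and 1 counts in the injured VEGFR3 fl/fl group and 0, 3 and 0 in labelled VEGFR3 iLECko, and Cryba2 had 7, 41 and 0 and then 0, 4 and 0. Crygb and Crygc had up to 49 and 77 counts, all in the same 3 libraries, but the gamma crystallins of this cluster are near-identical copies and their separate counts are uncertain. Injured VEGFR3 fl/fl 3 and labelled VEGFR3 iLECko 1 and 3 had 7 to 15 counts over the 12 genes, against 1 to 8 in sham.

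In the 3 libraries with more than 40 such counts, the make-up of the counts was alike within the counting error. Crybb2 took 34.3% of them in injured VEGFR3 fl/fl 2 (exact 95% binomial interval 31.2 to 37.5%), 31.4% in injured VEGFR3 fl/fl 1 (23.3 to 40.5%) and 40.8% in labelled VEGFR3 iLECko 2 (27.0 to 55.8%). Cryba1 took 17.3%, 17.4% and 18.4%, in the same order. For each of the 12 genes the intervals of the 3 libraries overlapped. Across the 9 libraries the log2 levels of Crybb2 correlated with those of Cryba1 at r = 0.995 and of Crybb1 at r = 0.950, a description that rests on these 3 libraries since most of the other values are 0 to 3 counts.

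**Figure D3:**
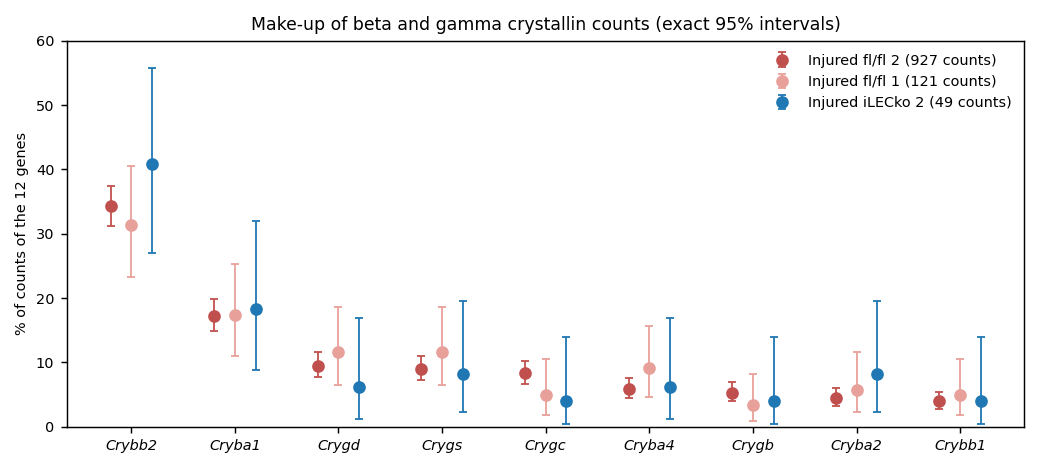
Share of each of 9 beta and gamma crystallins in the counts of the 12 genes, in percent, for the 3 libraries with the most such counts; error bars are exact 95% binomial intervals, which cover counting error only. Crybb2 and Cryba1 lead in all 3 libraries, and the intervals of each gene overlap although the totals range from 49 to 927 counts.

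Cryaa and Crybb3 did not keep a fixed ratio to that sum. There were 0.397, 0.655 and 36.1 counts of Cryaa per count of the 12 genes in injured VEGFR3 fl/fl 1, 2 and 3, and 39.1, 6.88 and 19.4 in labelled VEGFR3 iLECko 1, 2 and 3. Injured VEGFR3 fl/fl 3 thus had 541 counts of Cryaa beside 15 of the 12 beta and gamma crystallins, and injured VEGFR3 fl/fl 1 had 48 beside 121. Without injured VEGFR3 fl/fl 1 and 2 and labelled VEGFR3 iLECko 2, an alternative chosen after seeing the data, 1 injured VEGFR3 fl/fl library was left. Its 541 counts of Cryaa and 98 of Crybb3 stood against 0 to 2 and 22 to 24 in sham, with log2 fold changes of 8.95 and 2.11. These are given as values of 1 library, and no test is drawn from them. Cryba4 also had counts in all 6 injured libraries, 9 of them in injured VEGFR3 fl/fl 3, which had no Crybb2, Cryba1 or Crybb1.

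Genes of the fiber cell membrane and of fiber maturation were at or near 0, and none of 9 passed the filter on low counts. Mip, the aquaporin that is the main membrane protein of fiber cells, had 2, 1 and 4 counts in sham, 3, 11 and 5 in the injured VEGFR3 fl/fl group and 3, 3 and 2 in labelled VEGFR3 iLECko. Lgsn, which encodes the lens protein lengsin, had 0 counts in sham and 2, 13 and 0 in the injured VEGFR3 fl/fl group, in the same libraries as Crybb2. The lens galectin gene Grifin had 1 count in each sham library, 12, 13 and 7 in the injured VEGFR3 fl/fl group and 2, 8 and 4 in labelled VEGFR3 iLECko. Grifin counts in all 6 injured libraries thus lay above sham. The 9 genes together had 6 to 11 counts in a sham library, 22 to 56 after injury in VEGFR3 fl/fl mice, and 12 to 28 under the knockout label. Lens left on the iris at dissection is a possible source of these transcripts whose part was not tested.

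The photoreceptor markers, a measure of retinal RNA in the libraries, varied widely within every group. Their sum was 39.7, 653 and 17.1 CPM in injured VEGFR3 fl/fl 1 to 3, 656, 27.8 and 527 in labelled VEGFR3 iLECko 1 to 3, and 1001, 107 and 351 in sham. Injured VEGFR3 fl/fl 2, which held most of the beta and gamma crystallin counts, also had one of the higher sums. Sham 1 had the highest sum with 1 count of Cryaa, and labelled VEGFR3 iLECko 2 had a low sum with 49 counts of the beta and gamma crystallins. The correlation of log2 levels over the 9 libraries, which share their processing, was r = 0.002 for Crybb2 and -0.25 for Cryaa. Over all members it ran from -0.546 for Bfsp1 to 0.437 for Bfsp2. With this sum as a covariate, a choice made after seeing the data, the same 5 members were called in injured VEGFR3 fl/fl against sham. The part of retinal RNA in the levels of the members was not tested. The study's ciliary body markers were low, with Atp6v1c2 at 3 to 27 counts and Cacna1e at 19 to 33, while Best2, which is also made in ciliary epithelium, was at 459 to 1979.

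**Figure D4:**
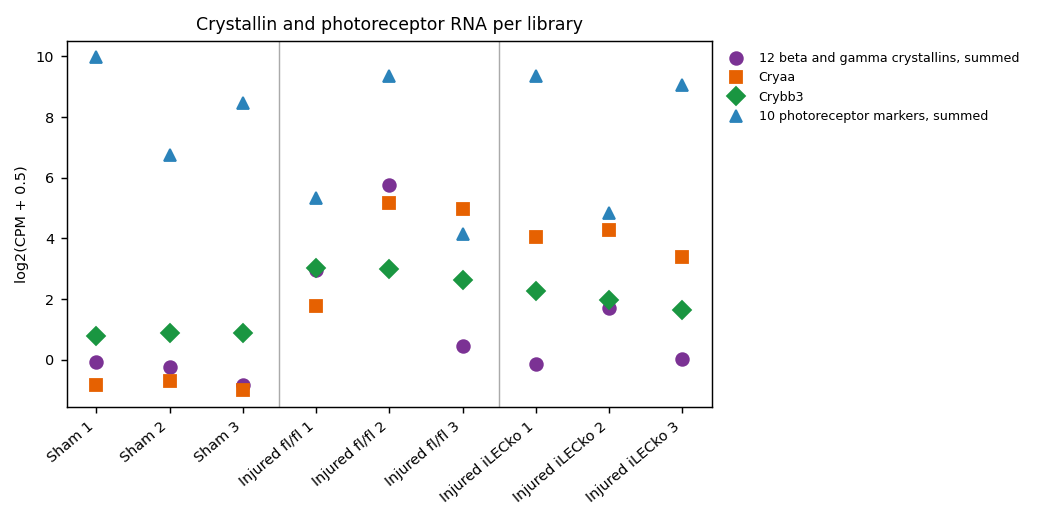
Level in each library, as log2(CPM + 0.5), of the sum of 12 beta and gamma crystallins, of Cryaa, of Crybb3 and of the sum of 10 photoreceptor markers; vertical lines part the 3 groups. Cryaa and Crybb3 are above sham in all 6 injured libraries, whereas the beta and gamma sum is clearly raised in 3, and the photoreceptor sum is high or low in every group.

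The second comparison asked whether the injured libraries under the knockout label differed from injured VEGFR3 fl/fl. No member was called by edgeR, with 2 of 6 at an unadjusted p under 0.05, and 1.04% of all tested genes were called, 0.573% higher and 0.466% lower (24.5% at an unadjusted p under 0.05). DESeq2 called 1 member, Crybb3. Its counts of 74, 60 and 45 under the label all lay below the 125, 127 and 98 of injured VEGFR3 fl/fl and above sham. The log2 fold change was -1.0 ± 0.23 (SE), with an edgeR adjusted p of 0.0612 and a DESeq2 adjusted p of 0.00718, and a range of 0.00718 to 0.536 over all alternatives. Bfsp1, at 40, 37 and 40 counts under the label, also lay below all 3 injured VEGFR3 fl/fl libraries without passing (-0.71 ± 0.29, edgeR adjusted p = 0.174). Non-overlap downward was seen in 14.3% of all tested genes.

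The remaining members did not pass either. Cryaa was at 15.1 ± 4.58 CPM under the label and 23.2 ± 17.7 CPM in the injured VEGFR3 fl/fl group (SD, n = 3), a log2 fold change of -0.62 ± 0.67 (SE, edgeR adjusted p = 0.587), and the groups overlapped. Cryab differed by -0.04 ± 0.16 (adjusted p = 0.911) and Bfsp2 by 0.27 ± 0.29 (adjusted p = 0.587). Crybb2 had 0, 20 and 0 counts under the label, and its log2 fold change of -4.17 ± 1.89 did not pass (adjusted p = 0.226). Cryba1 had 0, 9 and 0 counts and Crybb1 0, 2 and 0, all in labelled VEGFR3 iLECko 2. Cryba4, at 3, 3 and 6 counts, and Crygs, at 4, 4 and 3, lay below the 3 injured VEGFR3 fl/fl libraries, with counting ratios of 0.159 and 0.105, but most of that difference came from injured VEGFR3 fl/fl 2. The sum of Y-linked counts also differed between these groups, and its part was not tested.

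The third comparison set the labelled VEGFR3 iLECko libraries against the same sham libraries. Cryaa and Crybb3 were called higher and Cryab lower, 3 of 6 tested members, where 34.8% of all tested genes were called (19.7% higher and 15% lower, and 59.9% at an unadjusted p under 0.05). Cryaa and Crybb2 were among those tested only through their counts in injured libraries, so this count of calls supports nothing on its own. The log2 fold changes were 7.90 ± 1.26 for Cryaa (SE, edgeR adjusted p = 6.64e-04), 1.39 ± 0.24 for Crybb3 (adjusted p = 0.00115) and -1.34 ± 0.16 for Cryab (adjusted p = 1.31e-04). For Cryaa the ratio of summed CPM was 269-fold, with a counting interval of 91.7 to 1307. Bfsp2 lay below sham in all 3 libraries but was not called (-0.64 ± 0.29, adjusted p = 0.0891). It was called by DESeq2 (adjusted p = 0.0477), without injured VEGFR3 fl/fl 1 (0.00146), with only these 2 groups in the fit (9.87e-04) and without the 3 libraries rich in beta and gamma crystallins (0.0051), within a range of 9.87e-04 to 0.236 over all alternatives. Bfsp1 (-0.16 ± 0.29, adjusted p = 0.669) and Crybb2 (5.76 ± 4.37, adjusted p = 0.303) did not pass. Because both injured groups were compared with the same 3 sham libraries, these values are not independent of those of the first comparison. The sum of Y-linked counts was 923 to 2967 in sham and 13 to 19 under the label. The sex of the pooled mice and the treatment cannot be told apart in this comparison.

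Several transcription factors that drive crystallin genes in the lens were expressed in sham iris, and the changes ran in both directions. Of 9 tested lens transcription factors, 2 were called higher and 4 lower in the injured VEGFR3 fl/fl group than in sham. Over all tested genes, 22.1% were called higher and 17.5% lower. The median log2 fold change was -0.55 over the 9 factors and 0.01 over all tested genes. Maf, a large Maf protein that binds crystallin promoters, had 588, 565 and 530 counts in sham and 850, 1002 and 1184 after injury (0.92 ± 0.10, edgeR adjusted p = 6.39e-05). The small Maf gene Mafk rose by 0.80 ± 0.10 (adjusted p = 1.26e-04), whereas Mafg did not pass (0.10 ± 0.08, adjusted p = 0.266). Pax6, the eye master regulator also used by iris epithelium, had 13309, 13273 and 13819 counts in sham and 3197, 3780 and 3907 after injury (-1.82 ± 0.10, adjusted p = 7.08e-07). Six3 fell to 32.8% and Meis1 to 35.3% of their sham levels, both called.

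Hsf4, the heat shock factor needed for fiber cell maturation, had 804, 1131 and 785 counts in sham, 228, 357 and 282 in the injured VEGFR3 fl/fl group and 286, 247 and 258 in labelled VEGFR3 iLECko. It was thus lower in all 6 injured libraries (-1.58 ± 0.19 in the injured VEGFR3 fl/fl group, edgeR adjusted p = 8.26e-05). Prox1, a fiber cell factor that also marks lymphatic endothelium, and Sox2 were not called. The lens epithelium factors Foxe3 and Pitx3 had 0 to 3 counts in every library. Under the knockout label, 1 factor was called higher and 4 lower against sham, where 19.7% of all tested genes were called higher and 15% lower. Mafk was at 0.80 and Maf at 0.49, the latter under the fold threshold. None of the 9 was called between the injured groups, and 4 were at an unadjusted p under 0.05 by edgeR, against 24.5% of all tested genes. Pax6 had an edgeR adjusted p of 0.0399 at 0.52 on the log2 scale, under the fold threshold.

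Of 5 other small heat shock genes tested, 4 were called lower in the injured VEGFR3 fl/fl group and none higher, where 17.5% of all tested genes were called lower. Their median log2 fold change was -0.99, and Hspb3, at 0 to 2 counts in every library, was not tested. Hspb6, a small heat shock gene of muscle, had 1114, 1393 and 1072 counts in sham and 232, 338 and 304 after injury (-1.97 ± 0.18, edgeR adjusted p = 1.67e-05). Hspb7 (-1.43), Hspb8 (-0.99) and Hspb2 (-0.88) were also called. The Hspb2 call is not separate from that of Cryab, whose exons it overlaps, since reads of the pair cannot be told apart without strand. Hspb1, the stress-induced member made in most tissues, was 0.34 ± 0.09 higher with an adjusted p of 0.0107, under the fold threshold. The same 4 genes were called lower under the knockout label against sham, with a median of -0.94. Over all tested genes the share called lower there was 15%.

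**Figure D5:**
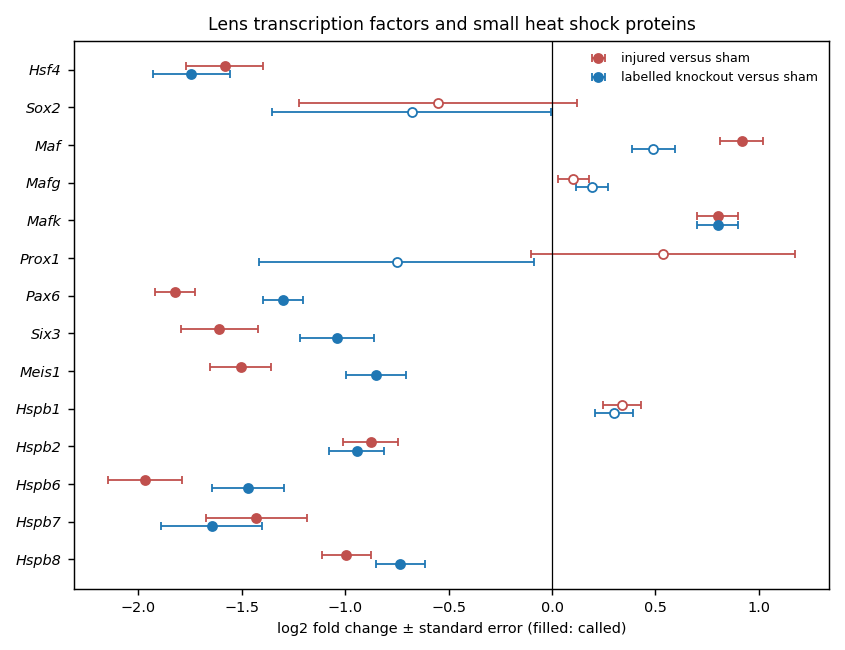
Log2 fold changes with standard errors, against sham, of 9 lens transcription factors and 5 small heat shock genes in the injured VEGFR3 fl/fl group (red) and labelled VEGFR3 iLECko (blue), from edgeR; filled points were called and open points were not. Hsf4 at -1.58 and -1.74 and Hspb6 at -1.97 and -1.47 lie to the left in both groups, and Maf at 0.92 and Mafk at 0.80 lie to the right.

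Crygn, the remaining lens crystallin outside the members and one also made in retina, was the only other one with enough counts to be tested, and it fell. It had 62, 64 and 104 counts in sham, 18, 7 and 20 in the injured VEGFR3 fl/fl group and 27, 44 and 12 in labelled VEGFR3 iLECko (-2.28 ± 0.52 in the injured VEGFR3 fl/fl group, edgeR adjusted p = 0.00414). Genes that carry a crystallin name without being lens structural proteins were a separate list, with a median of -0.37 in the injured VEGFR3 fl/fl group. Over all tested genes, 22.1% were called higher and 17.5% lower in that comparison. Of the 6 tested in this list, 2 were called lower and none higher. These were Crybg1 (-1.42 ± 0.10, adjusted p = 3.76e-06) and Crybg3 (-0.86 ± 0.13, adjusted p = 4.67e-04). The enzyme genes Cryz, Cryzl1 and Cryl1 and the thyroid hormone binding protein gene Crym were not called.

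The genes most like the members depended on how the members were summed. By the log2 of the summed CPM of the 9 members without Cryab, Tinagl1 (r = 0.906) and C1ql1 (r = 0.903) were nearest over the 9 libraries, and Bfsp2 supplied most of that sum and correlated with it at 0.841. By the sum of the 5 members Cryba1, Cryba4, Crybb1, Crybb2 and Crygs, a choice made after seeing the data, Josd1 (r = 0.954) and Prim1 (r = 0.943) were nearest, and 0 of the first 10 genes were shared between these lists. All points share the libraries, and the second pattern rests on 3 of them.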

How the data were processed

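Iris RNA of 9 libraries was sequenced as single-end reads of 50 bases. The authors deposited estimated counts per gene, not normalized, of which 9.83% to 10.3% per library were not whole. The submitters' processing notes name HISAT2 2.0.4, Bowtie2 2.2.5, DESeq2 1.4.5 and build mm10. The annotation, the counting program and its use of strand are not given in the sources used here, and the combined table of the series was not used. Counts were rounded and fitted with edgeR 4.0.16 (R 4.3.3): TMM, filterByExpr, glmQLFit over all 9 libraries with group as the only term, glmQLFTest and Benjamini-Hochberg adjustment over 15010 of 18349 genes. SE is the absolute log2 fold change divided by the square root of F. The threshold of more than 1.5-fold with adjusted p under 0.05 is that of the study's methods. The fit was tested on simulated data. DESeq2 1.42.0 was an alternative, with other scalings, filters, samples, a replicate block and each library left out. Leaving out 3 libraries rich in beta and gamma crystallins and a photoreceptor covariate were chosen after seeing the data. Permutation of 3 against 3 libraries cannot give a two-sided exact p under 0.1, so none is used. With no record that replicates came from separate litters, p-values measure the spread between these pools. Libraries of a group differed by more than sampling noise, so each was counted as 1 sample.

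Members and gene lists were chosen with earlier results of these data known. All members were named in every library, as was any gene of the lens and small heat shock lists, at most 4 genes with the highest mean count of other lists plus any gene whose call bears on a member, and the 10 genes nearest in pattern, of which the first 2 are printed. Gene coordinates are from GENCODE M21 and upstream stretches from RefSeq, both GRCm38, which is mm10. Of the 3 labelled VEGFR3 iLECko libraries, the genotype labels name 3 different genes, and group was taken from their titles.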

Additional observations from a re-analysis of the deposited data

How the results depend on the processing

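Scaling, filter, tool, samples in the fit and a replicate block were varied, and each library was left out. Of the members' fold changes under all alternatives, 316 kept direction and side of the threshold, 7 passed it newly, 6 no longer passed and 8 changed sign. In injured against sham, 5 members were called, 8 without a filter on low counts (Cryba1, Cryba4 and Crygs added), 3 with only the 2 groups in the fit (Crybb2 not tested, Bfsp2 not passing), and 5 to 8 with a library left out. The count was 8, with the same names as without a filter, without injured VEGFR3 fl/fl 3 or any 1 labelled VEGFR3 iLECko library. Between the injured groups, 0 members were called, 1 by DESeq2 (Crybb3), and 0 to 1 with a library left out (Crygs without injured VEGFR3 fl/fl 3). Against sham, the labelled VEGFR3 iLECko libraries had 3 members called, and 3 to 4 with a library left out.

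The changed signs were all of members not called. Cryab between the injured groups was 0.031 by library size only, 0.073 without the 3 libraries rich in beta and gamma crystallins, 0.002 with the photoreceptor covariate and -0.187 to 0.102 with a library left out. It was 0.079 without injured VEGFR3 fl/fl 1 and 0.102 without labelled VEGFR3 iLECko 3. With a library left out, Bfsp2 between the injured groups was -0.042 (without injured VEGFR3 fl/fl 1) to 0.57, Bfsp1 under the label against sham -0.289 to 0.044 (without sham 2), and Crybb2 0.00 (without labelled VEGFR3 iLECko 2, its only library there with counts) to 6.33. The cause was not tested. In the gene lists beside the members, the calls between the injured groups were 2, with 1 by upper quartile, by library size only or without a filter, 11 by DESeq2, 0 with only 2 groups, with the replicate block, without the 3 libraries or with the covariate, and 0 to 9 with a library left out. Over all genes this comparison gave 156 calls, 630 by DESeq2, 24 with the block, 35 with the covariate, 5 without the 3 libraries and 0 with only 2 groups, and 0 to 281 with a library left out. In injured against sham, library size only gave 2783 genes higher and 3523 lower, against 3323 and 2630. The likeness to the members shared 0 of 10 genes by the mean of log2 levels and 0 by the sum of the 5 crystallins.

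Same replicate numbers did not pair the libraries: deviations correlated at -0.37 to 0.163 over 9 pairs, 1 of them over 0.1, and 1 of 9 libraries was closest to its own number throughout. With the replicate block, 5, 0 and 4 members were called in the 3 comparisons, Crybb2 being added under the label against sham (adjusted p = 0.0363, within 0.0363 to 1 over all alternatives). Depth limits the 4 members under the filter, which had 0 to 4 counts in sham libraries.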
